A study of Homo sapiens with 30 samples.

Results

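Cultures of human small airway epithelial (SAE) cells that received no particles were compared at 24 h and at 1 h of culture, using 6 of the 30 arrays of the series, 3 at each time. The arrays were chosen by their titles, and the comparison covered 11963 genes, each read from the probe set with the highest mean over the 30 arrays. The series exposed SAE cells to 0, 10 or 100 ug/ml of multi-walled carbon nanotubes (MWCNT) or titanium dioxide nanobelts (TiO2-NB) for 1 or 24 h, with 3 arrays in each of 10 groups. The unexposed cultures had 0 ug/ml of either particle. All cultures shared a supplemented small airway growth medium and the same handling: cells were detached with trypsin, resuspended, counted, plated in flasks and grown until the adherent cells were washed and lysed for RNA. The labels do not say how long the cells had been attached before time was counted, nor whether the medium was renewed. They name 3 biological replicates without saying whether these were separate cultures, lots or donors. The p-values and standard errors (SE) use 1 spread per gene, shared by all 30 arrays. They therefore measure the spread between arrays within the 10 groups, most of them exposed, and not that of the 6 unexposed arrays alone. No batch or processing day is given, and any batch that followed culture time cannot be told apart from time.

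Detaching, replating and fresh growth factors act on epithelial cells through the ERK kinase cascade, calcium and cytoskeletal tension. These signals switch on immediate early genes, whose promoters are poised and whose messenger RNAs decay within minutes to hours, and then the phosphatases and RNA-decay proteins that end the signal. Slower programmes, such as the cell cycle, amino acid metabolism and differentiation, follow over the next day.

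Levels are the authors' log2 values from RMA (robust multi-array average), so a difference of 1 is a 2-fold change. The median change over all genes was -0.01. A gene was called when its adjusted p from limma was under 0.05. Array medians lay between 7.15 and 7.21 over the whole series. Markers of the labelled cell type gave a mixed picture. Of 10 airway epithelial and basal markers tested, 5 lay above the table's median. EPCAM, NGFR and ELF3 lay below it, at percentiles 48.4, 47.5 and 41.1 at 1 h. The cell cycle brake SFN stood at percentile 97.0 of all genes at 1 h, the hemidesmosome integrin ITGB4 at 80.5, ITGA6 at 69.5 and the adhesion protein CDH1 at 60.2. KRT5 was near the middle of all genes (percentile 51.4) and KRT14 was at 10.4, so these basal keratins were not high on this array. KRT19, which is not a basal keratin, was at 35.2. Of 8 alveolar markers 5 lay above the table's median, with the caveolar protein CAV1 at percentile 96.0, the lysosomal protein LAMP3 at 89.9, the surfactant gene SFTPC at 56.0 and the type I cell gene AGER at 45.2. None of 5 ciliated markers tested lay above the median of the table. Of 10 immune markers only CD14 did, with the leukocyte antigen PTPRC at percentile 6.0 and the lysozyme gene LYZ at 4.0. The median level of the immune markers per array ran from 5.46 to 5.57 at 1 h and from 5.56 to 5.73 at 24 h, and that of the fibroblast markers from 5.28 to 5.42 and from 5.34 to 5.42. Of 9 fibroblast markers 3 lay above the table's median, and the collagen gene COL1A1 was at percentile 59.9 at 1 h. Percentiles compare probe sets of different brightness and are a rough guide only.

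By 24 h, 3796 of 11963 genes (31.7%) had changed, 2307 (19.3%) higher and 1489 (12.4%) lower than at 1 h. Rises were more numerous, and the median size of a called change was 0.33 for rises and 0.29 for falls (log2). Above 1.5-fold, 546 genes (4.56%) were called, 328 higher and 218 lower. Falls outnumbered rises from 2-fold up. More than 2-fold, 55 genes rose and 98 fell; more than 4-fold, 1 rose and 41 fell; more than 16-fold, none rose and 8 fell. For 4489 genes (37.5%) the 3 arrays at one time did not overlap the 3 at the other, and 3402 of those were called. A fit on the 6 control arrays alone called 2075 genes. After cyclic loess scaling the control calls were 2020 rises and 1757 falls. In whole cultures, fewer cells of a kind and less RNA per cell cannot be told apart.

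**Figure D1:**
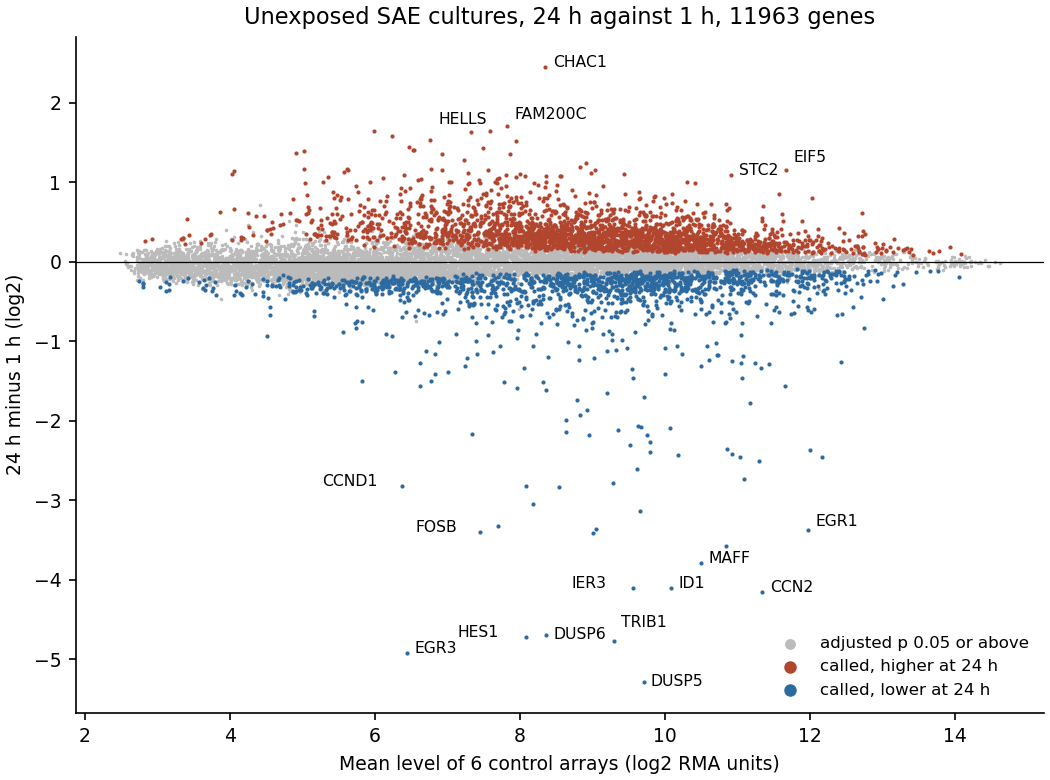
Each point is a gene: mean level over the 6 unexposed arrays (log2 RMA units) against the 24 h minus 1 h difference (log2), coloured by call at an adjusted p of 0.05. The falls reach -5.29 (DUSP5) and the rises 2.45 (CHAC1).

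1 array stood apart. In the 24 h group, replicate 1 differed by more than 2-fold from the mean of the other 2 arrays in 39 genes, 34 of them lower, against 4 genes for replicate 2 and 1 for replicate 3. Each array of the 1 h group differed so in 1 gene. Several rises named below rest mainly on replicates 2 and 3 for that reason.

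The largest falls were genes of the immediate early response and of the feedback on ERK. The 20 largest falls and 20 largest rises were chosen among called genes without overlap between the times. For these genes the lack of overlap was fixed by that choice. The promoters of 3 of the genes that fell are shown because each holds letters that match a site of a pathway described below, alongside those of CHAC1, which had the largest rise, and MT2A, a metallothionein that fell. The sequences are from RefSeq on GRCh38.p14, 250 bases before to 50 after the start of the gene, 5′ to 3′ on the coding strand, with matches in capitals. The EGR1 window (chr5:138465229-138465528, + strand) holds 2 CArG boxes, the site of serum response factor:
EGR1: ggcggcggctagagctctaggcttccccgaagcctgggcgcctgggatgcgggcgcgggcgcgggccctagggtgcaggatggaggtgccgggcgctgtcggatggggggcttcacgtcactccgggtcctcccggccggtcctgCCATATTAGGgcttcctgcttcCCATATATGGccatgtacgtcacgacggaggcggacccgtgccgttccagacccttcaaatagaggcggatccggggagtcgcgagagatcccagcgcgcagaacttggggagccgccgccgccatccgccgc
The CCN2 window (chr6:131951323-131951622, - strand) holds CATTCC, the TEAD site that YAP partners bind, 3 times on either strand:
CCN2: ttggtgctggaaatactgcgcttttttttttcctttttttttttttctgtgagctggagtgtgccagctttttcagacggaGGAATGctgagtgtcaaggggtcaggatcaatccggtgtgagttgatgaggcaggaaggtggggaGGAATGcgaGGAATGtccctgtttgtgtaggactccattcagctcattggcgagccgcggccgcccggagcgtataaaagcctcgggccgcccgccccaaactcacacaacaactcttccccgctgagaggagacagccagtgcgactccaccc
The HES1 window (chr3:194135898-194136197, + strand) holds TGGGAA, the core of the RBPJ site through which Notch acts, 2 times:
HES1: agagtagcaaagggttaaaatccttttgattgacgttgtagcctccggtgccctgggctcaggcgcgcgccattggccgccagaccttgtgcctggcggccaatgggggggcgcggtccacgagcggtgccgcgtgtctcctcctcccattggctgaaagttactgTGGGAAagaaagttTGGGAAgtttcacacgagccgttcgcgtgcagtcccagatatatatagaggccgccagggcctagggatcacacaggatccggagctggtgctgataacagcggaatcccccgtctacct
The CHAC1 window (chr15:40953221-40953520, + strand) holds TGATGNAA, the core of the composite element bound by ATF4 with a C/EBP partner, 1 time:
CHAC1: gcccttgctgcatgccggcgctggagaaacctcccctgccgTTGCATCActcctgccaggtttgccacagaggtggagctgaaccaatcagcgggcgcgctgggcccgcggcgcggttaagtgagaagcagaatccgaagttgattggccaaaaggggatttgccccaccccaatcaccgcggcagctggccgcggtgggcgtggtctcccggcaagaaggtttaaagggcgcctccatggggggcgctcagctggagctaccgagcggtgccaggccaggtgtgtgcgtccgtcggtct
The MT2A window (chr16:56608334-56608633, + strand) holds 8 metal response elements (TGCACNC or TGCGCNC), the sites of the zinc sensor MTF1:
MT2A: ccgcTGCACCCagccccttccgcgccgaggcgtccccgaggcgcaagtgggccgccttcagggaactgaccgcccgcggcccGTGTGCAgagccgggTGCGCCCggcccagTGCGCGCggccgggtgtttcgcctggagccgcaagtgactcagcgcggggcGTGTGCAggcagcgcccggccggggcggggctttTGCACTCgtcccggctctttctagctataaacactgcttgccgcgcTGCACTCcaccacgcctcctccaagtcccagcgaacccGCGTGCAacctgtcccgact
Each motif was searched on both strands without regard to overlap with the others. Of 11963 genes, 9563 had a window. The CArG box occurred in 1.28% of these, the TEAD site in 11.3%, the RBPJ site in 21.8%, the ATF4 element in 2.25% and the metal response element in 36.5%. Among the 20 largest falls, 13 had a window, of which 1 held a CArG box, 3 a TEAD site and 3 an RBPJ site. None of the 13 held the ATF4 element and 3 held a metal response element. Among the 20 largest rises, 16 had a window, of which none held a CArG box, 4 a TEAD site and 4 an RBPJ site. The ATF4 element was in 1 of the 16 and the metal response element in 5. In the immediate early list 2 of 19 windows held a CArG box. The letters TGACGTCA and GCGTG were also searched. They were in 1 and 8 of the 13 falls, none and 5 of the 16 rises, and 3.06% and 46.6% of all windows. A match is a description of the letters and not evidence of binding.

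Of 25 immediate early genes tested, 24 fell and none rose, with a median change of -1.70. The share that fell was 96.0%, against 12.4% of all genes. The gene lists here and below were chosen with earlier results of these data known, so their shares are descriptions. Only KLF5 did not pass the test, at -0.04. EGR3, a zinc finger transcription factor induced by growth factors, read 9.35, 8.72 and 8.63 at 1 h and 4.08, 3.70 and 4.17 at 24 h, a fall of 30.2-fold (log2 change -4.92 ± 0.17 SE, n = 3 and 3, adjusted p = 3.46e-17). The 2 times lay far apart, and the 24 h level was at percentile 10.0 of all genes, where array background usually compresses folds. EGR1, its close relative with the CArG boxes shown above, read 13.71, 13.75 and 13.52 at 1 h and 10.40, 10.32 and 10.14 at 24 h. It fell 10.4-fold (-3.37 ± 0.08, adjusted p = 1.85e-20) and was still at percentile 86.6 at 24 h.

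Members of the AP-1 transcription factor fell together. FOS, the founding member, read 9.41, 9.37 and 9.29 at 1 h against 6.08, 6.14 and 5.86 at 24 h, and FOSB read 9.24, 9.24 and 8.97 against 5.43, 6.07 and 5.77. The falls were 10.1-fold and 10.5-fold (-3.33 ± 0.11 and -3.39 ± 0.14). JUNB changed by -3.05 ± 0.12, FOSL1 by -2.82 ± 0.10, JUN by -2.36, FOSL2 by -1.58 and JUND by -1.29. ATF3, a stress-induced partner of these proteins, fell by less, at -0.77. The small MAF protein MAFF, which has no activation domain of its own, was at 12.38, 12.39 and 12.39 at 1 h and 8.96, 8.38 and 8.46 at 24 h, a 13.8-fold fall. IER3, a survival gene of the early response, was nearly the same on all arrays of each time, with 11.55, 11.66 and 11.60 at 1 h and 7.48, 7.51 and 7.53 at 24 h (-4.10 ± 0.08). The orphan nuclear receptors NR4A1, NR4A2 and NR4A3 fell by between 1.33 and 1.57 on the log2 scale, and the Krüppel-like factors KLF10, KLF2, KLF4 and KLF6 by 2.45, 1.70, 1.41 and 1.16. For NR4A1 the other probe sets above the table's median gave -0.62 ± 0.13 and -0.10 ± 0.08.

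DUSP5, a nuclear phosphatase that switches off ERK, had the largest fall of all genes. Its levels were 12.46, 12.24 and 12.35 at 1 h and 7.22, 6.94 and 7.02 at 24 h, a 39.0-fold fall (-5.29 ± 0.08, adjusted p = 1.36e-24). DUSP6, the cytoplasmic ERK phosphatase, read 10.91, 10.48 and 10.72 against 5.84, 6.03 and 6.15 (25.9-fold, -4.70 ± 0.13). In the list of ERK feedback genes and growth factor ligands, 16 of 19 fell (84.2%, against 12.4% of all genes). None rose and the median change was -1.92. The general stress phosphatase DUSP1 fell by 2.37 and SPRY2, an inhibitor of receptor signalling, by 1.92, whereas SPRY1 did not pass the test at -0.12. Among ligands, the EGF receptor ligand EREG changed by -2.83 ± 0.15, HBEGF by -1.20 and the interleukin 6 family cytokine LIF by -3.41 ± 0.11. TGFA, at 0.01, and the receptor EGFR, at 0.36, did not pass the test. PHLDA1 changed by -3.36 ± 0.13 on its tested probe set, and its 4 others gave from -0.46 to -3.02. TRIB1, a pseudokinase scaffold that acts on MEK and C/EBP proteins, held 11.68, 11.66 and 11.70 at 1 h and 6.92, 6.94 and 6.90 at 24 h, a 27.2-fold fall with a narrow spread at both times.

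Genes that end the life of early messengers also came down. ZFP36, which recruits the deadenylase to AU-rich transcripts, fell 4.93-fold from 10.67, 10.67 and 10.66 to 8.41, 8.52 and 8.18 with no overlap, and its paralogues ZFP36L1 and ZFP36L2 fell 3.05-fold and 2.95-fold. Of 13 genes in the list of RNA decay and antiproliferative early genes, 9 fell (69.2%, against 12.4% of all genes). Only 2 rose (15.4%, against 19.3%). The risers were RGS2, a brake on G protein signalling (0.79 ± 0.08), and the kinase SGK1 (0.66). The remaining members BTG3 and TOB2 were at 0.08 and 0.10 and did not pass the test.

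**Figure D2:**
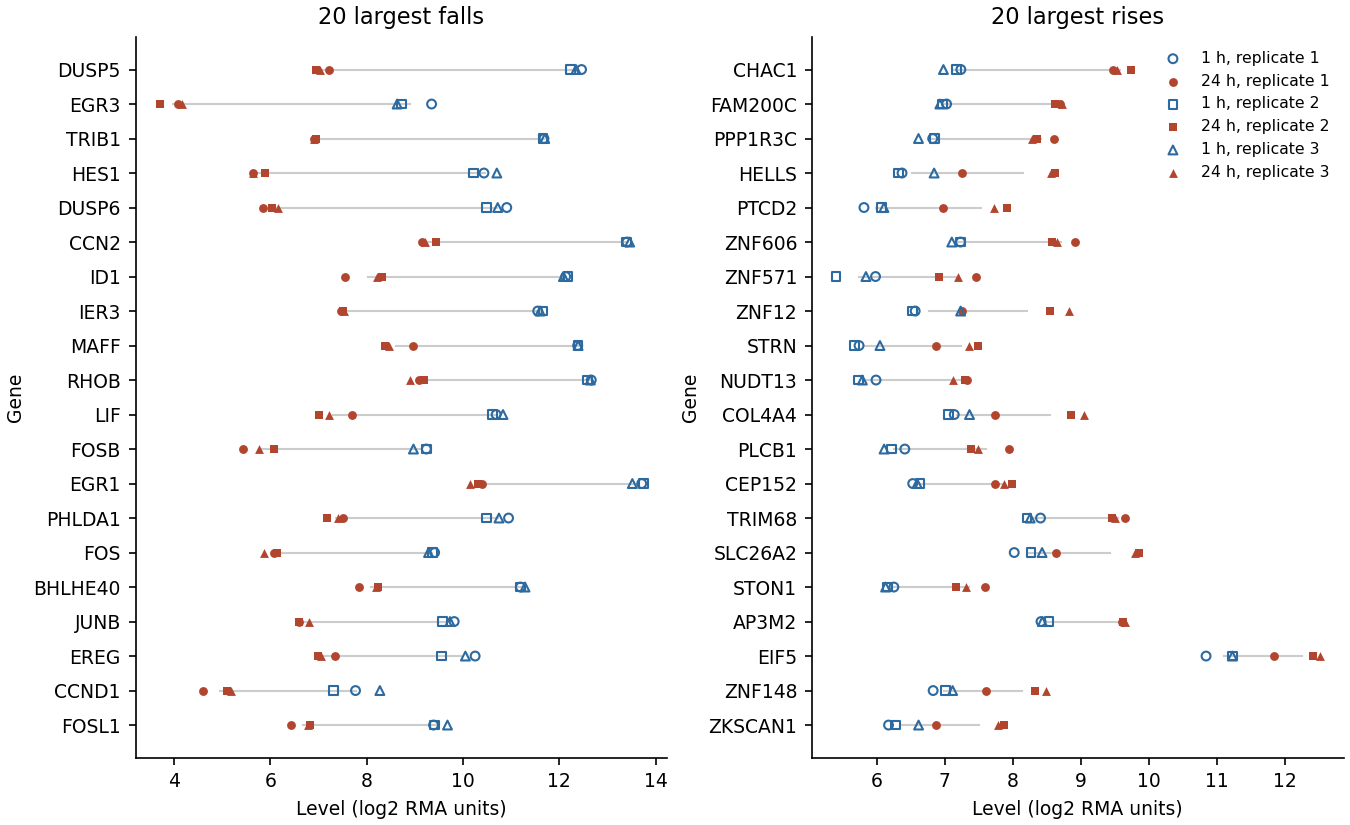
Level in log2 RMA units on each unexposed array for the 20 largest falls and the 20 largest rises, among called genes whose groups do not overlap and whose higher mean lies above the table's median. Open symbols are 1 h and filled symbols 24 h, with shape giving the replicate and grey lines joining group means; replicate 1 at 24 h (filled circle) lies below the other 2 for HELLS, PTCD2, ZNF12, COL4A4 and SLC26A2.

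HES1, the main Notch-induced repressor, was at 10.44, 10.21 and 10.70 at 1 h and at 5.65, 5.89 and 5.64 at 24 h, a 26.4-fold fall (-4.72 ± 0.10). ID1, the BMP-induced inhibitor of helix-loop-helix factors, fell 17.2-fold from 12.13, 12.18 and 12.09 to 7.55, 8.32 and 8.22. The arrays of each gene were fully separated by time. In the list of Notch and BMP early targets 7 of 14 fell (50%, against 12.4% of all genes). Among them were ID2 (-1.41), ID3 (-0.58) and the feedback inhibitor SMAD7 (2.82-fold lower). HEY1, another Notch target, rose by 0.43 ± 0.09, so the members did not move in 1 direction.

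Targets of YAP and of serum response factor, which read cell spreading and actin tension, mostly fell. Of 20, 14 fell (70%, against 12.4% of all genes), 1 rose (5%, against 19.3%) and the median was -0.30. A fit on the 6 control arrays alone called 9 falls and no rise. CCN2, a matricellular protein and YAP target, read 13.40, 13.40 and 13.46 at 1 h and 9.15, 9.43 and 9.22 at 24 h (17.8-fold, -4.16 ± 0.07). CCN1 fell 5.48-fold, and a further CCN1 probe set gave -3.01 ± 0.08. The matrix protein THBS1 fell 4.35-fold on its tested probe set (the others above the table's median gave -2.03 ± 0.18 and -1.04 ± 0.12) and SRF itself 2.15-fold. The actin-binding proteins TAGLN (-0.99 ± 0.18), CNN2 (-0.60) and TPM1 (-0.36) fell by less, and the smooth muscle actin gene ACTA2 rose by 0.34. RHOB, a short-lived GTPase of the actin system, fell 11.9-fold. Adhesion receptors moved both ways. The heparan sulphate proteoglycan SDC4 fell by 1.19 ± 0.05 and the fibronectin receptor subunit ITGA5 by 0.59, while ITGAV rose by 0.41 ± 0.06.

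In the list of proteases and the plasminogen system, 6 of 19 fell (31.6%, against 12.4% of all genes) and 1 rose (5.26%, against 19.3%). F3, tissue factor and the trigger of coagulation, was at 11.04, 10.71 and 11.24 at 1 h and at 8.60, 8.47 and 8.74 at 24 h, 5.26-fold lower with no overlap. Its inhibitor-family member TFPI2 fell by 0.91 and the urokinase receptor PLAUR by 0.60, while the tissue plasminogen activator gene PLAT rose by 0.70 ± 0.08. No matrix metalloproteinase among the 8 tested passed the test.

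Several receptor-driven and stress genes were also lower at 24 h. For the aryl hydrocarbon receptor, which senses planar ligands including tryptophan products in medium, 5 of 7 targets fell (71.4%, against 12.4% of all genes). None of the 7 rose and the median was -0.66. TIPARP, the receptor's feedback inhibitor, went from 12.53, 12.56 and 12.57 to 9.86, 10.12 and 10.14 (5.70-fold). CYP1B1, which oxidises such ligands, went from 11.88, 12.08 and 12.22 to 9.30, 10.81 and 10.74 (3.43-fold), with replicate 1 at 24 h more than 1 unit below the other 2. CYP1A1 fell by 0.69 ± 0.10. NQO1 fell by 0.28, but lost its call in the fit on control arrays alone and without replicate 1 at 24 h.

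Of 9 metallothionein and zinc transport genes, 7 fell (77.8%, against 12.4% of all genes) and 1 rose (11.1%, against 19.3%). The median was -0.57. MT2A, whose metal response elements are printed above, read 13.18, 13.14 and 13.17 at 1 h and 12.07, 12.51 and 12.41 at 24 h (1.79-fold lower, adjusted p = 1.62e-07), with no overlap. MT1X, MT1F, MT1G, MT1E and MT1H fell by 0.67, 0.66, 0.64, 0.57 and 0.56. Their short, near-identical messages may share probes, and in each the lowest 24 h value was replicate 1. Without that array MT1E changed by -0.33 (adjusted p = 0.0339). The list's median was -0.32 with 10 ug/ml MWCNT, -0.43 with 100 ug/ml MWCNT, -0.34 with 10 ug/ml TiO2-NB and 0.01 with 100 ug/ml TiO2-NB. No member of it differed by the test of unexposed against mean exposed change. That test averages the 4 exposures, so it can miss a departure in only 1 of them. With 100 ug/ml TiO2-NB none of the 9 members was called. With 100 ug/ml MWCNT the zinc exporter SLC30A1 was called higher, opposite to its fall in controls.

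Among heat shock genes 5 of 13 fell (38.5%, against 12.4% of all genes) and none rose. The falls were led by the HSP70 co-chaperone DNAJB1 (2.36-fold) and its partner BAG3 (1.48-fold). HMOX1, the haem-degrading enzyme, fell 1.63-fold, and of the 20 genes in the NRF2 list 4 rose (20%, near the 19.3% of all genes) and 5 fell (25.0%, against 12.4%). Over the alternative settings the list had 2 to 8 falls. The rises included the aldo-keto reductases AKR1C1 and AKR1C2 (0.38 and 0.36), near-identical genes whose probes may share signal. In the unfolded protein response list 4 of 15 fell (26.7%, against 12.4% of all genes) and 1 rose (6.67%, against 19.3%). The ER co-chaperone DNAJB9 was at -0.77 and the main chaperone HSPA5 at -0.35. From the hypoxia and glycolysis list 7 of 20 fell (35%, against 12.4% of all genes) and none rose. The vasodilator peptide gene ADM, at 11.39, 11.20 and 11.60 at 1 h and 8.98, 9.03 and 8.88 at 24 h, changed by -2.43 ± 0.08 without overlap. The glucose transporter SLC2A1 fell 1.58-fold, whereas GAPDH (0.03) and PGK1 (-0.08) did not pass the test.

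Glucocorticoid-responsive genes did not move together: TSC22D3, an anti-inflammatory target, rose 1.82-fold, while KLF9 and CEBPD fell 2.09-fold and 2.25-fold. Of the cAMP and CREB list 7 of 11 fell (63.6%, against 12.4% of all genes) and 3 rose (27.3%, against 19.3%). However, 5 of the 7 that fell (FOS, DUSP1 and the 3 NR4A genes) are also immediate early or ERK feedback genes. SIK1, a kinase that restrains CREB coactivators, fell 4.53-fold. Among clock genes 6 of 15 fell (40%, against 12.4% of all genes) and 4 rose (26.7%, against 19.3%). The fit on control arrays alone called 3 falls and 3 rises. BHLHE40, a repressor of the clock that also answers to serum, fell 8.74-fold and the period gene PER2 1.87-fold. NR1D2 rose by 0.54 and NFIL3 by 0.56. With 2 times of sampling, a phase cannot be read from these values.

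Of 24 inflammatory genes tested, 7 fell (29.2%, against 12.4% of all genes) and 2 rose (8.33%, against 19.3%). The fit on control arrays alone called 5 falls and no rise. CCL20, a chemokine for dendritic and T cells, read 7.73, 7.57 and 7.79 at 1 h and 6.98, 5.71 and 6.25 at 24 h, a 2.60-fold fall with a wide 24 h spread. IL1A fell 1.78-fold and ICAM1 1.36-fold. CXCL3 (0.50) and TNFAIP3 (0.36) rose, but both calls were lost without replicate 1 at 24 h, when the changes were 0.16 (adjusted p = 0.412) and 0.14 (adjusted p = 0.297). CXCL8 changed by -0.75 and did not pass the test.

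Rises in the gene lists were smaller than the early falls, apart from a few genes. CHAC1, which degrades glutathione and is a target of ATF4, had the largest rise, from 7.24, 7.17 and 6.98 at 1 h to 9.47, 9.73 and 9.52 at 24 h (5.45-fold, 2.45 ± 0.10, adjusted p = 5.55e-16). Of the 19 ATF4 and amino acid stress genes, 10 rose (52.6%, against 19.3% of all genes) and 3 fell (15.8%, against 12.4%). The list's median was 0.20, and the fit on control arrays alone called 6 rises. ATF4 itself rose 1.53-fold, with 12.42, 12.38 and 12.41 at 1 h and 13.01, 13.04 and 12.99 at 24 h. The secreted glycoprotein STC2 rose 2.13-fold (0.46 ± 0.07 on a second probe set) and DDIT4, an inhibitor of mTORC1, 1.52-fold. Changes of the classical synthesis targets were small, with ASNS at 0.22 and PHGDH at 0.21. PPP1R15A, the phosphatase subunit that ends this response and is also an early gene, fell 2.55-fold, and the amino acid transporter SLC7A5 fell 1.49-fold. Of the 16 list members with a promoter window, 4 (25.0%) held the ATF4 element, against 2.25% of all windows. The metal response element was in 10 of the 16 (62.5%), against 36.5% of all windows.

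Cell cycle genes rose by small amounts. In the mitosis list 17 of 29 rose and none fell, a share of 58.6% against 19.3% of all genes, with a median of 0.23; the fit on control arrays alone called 11. NDC80, a kinetochore subunit, read 10.14, 10.23 and 10.40 at 1 h and 10.72, 10.62 and 10.84 at 24 h (1.39-fold). The phosphatase CDC25C, which activates CDK1, rose 1.34-fold, topoisomerase TOP2A 1.28-fold and the kinase AURKB 1.28-fold. A second TOP2A probe set above the table's median gave a log2 change of 1.24 ± 0.25. CCNB1 (-0.12), PLK1 (-0.09) and CDC20 (0.01) did not pass the test. In the DNA replication and G1/S list 13 of 29 rose (44.8%, against 19.3% of all genes) and 2 fell (6.9%, against 12.4%). The fit on control arrays alone called 7 rises. POLA1, the catalytic subunit of DNA polymerase alpha, rose 1.51-fold, the licensing factor CDT1 1.47-fold and the ribonucleotide reductase subunit RRM1 1.35-fold. None of the helicase genes MCM2, MCM3, MCM5, MCM6 and MCM7 passed the test, with changes from -0.13 to 0.11, and MCM4 rose by 0.21.

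CCND1, the cyclin that carries growth factor signals into G1, went against this list. Its tested probe set fell from 7.77, 7.30 and 8.28 to 4.60, 5.10 and 5.18 (-2.82 ± 0.24), and its other, dimmer probe set gave -0.47 ± 0.12. HELLS, a chromatin remodeller of the replicating genome, rose from 6.37, 6.32 and 6.84 to 7.25, 8.62 and 8.56 (3.10-fold). Replicate 1 at 24 h was far below the other 2.

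Genes for making ribosomes fell while those for the ribosome's own proteins stayed near 0. Of 18 ribosome biogenesis genes 11 fell and none rose (61.1% against 12.4% of all genes), with a median of -0.26. BYSL, RRS1, RRP12 and NOP16, factors of the small and large subunit, fell 1.62-fold, 1.59-fold, 1.58-fold and 1.58-fold, and POLR1C, a subunit of RNA polymerases I and III, 1.41-fold. The nucleolar proteins FBL (0.04), NCL (0.00) and NPM1 (0.02) did not pass the test. Among 24 cytosolic ribosomal protein genes the median was -0.01 and only RPL38 was called, at -0.11 ± 0.04, a call that 7 of the 14 alternative settings lost.

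Of 23 interferon-stimulated genes tested, 10 rose (43.5%, against 19.3% of all genes) and 2 fell (8.70%, against 12.4%), with a median of 0.24. The fit on control arrays alone called 8 rises and 1 fall. IFI44L read 7.26, 6.86 and 7.17 at 1 h and 8.05, 7.96 and 7.88 at 24 h (1.82-fold), IFIT1 rose 1.76-fold, IFI44 1.71-fold, IFI6 1.59-fold and IRF9, a subunit of the factor that induces them, 1.45-fold. GBP1 and IRF1, which answer mainly to interferon gamma, fell by 0.38 and 0.28. The GBP1 groups overlapped, and without replicate 2 at 24 h its change was -0.24 (adjusted p = 0.178). A second GBP1 probe set above the table's median gave -0.11 ± 0.09. CXCL10 and CXCL11 were at -0.01 and -0.19 and did not pass the test.

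Many of the other large rises were in genes with no list. FAM200C read 7.03, 6.96 and 6.93 at 1 h and 8.69, 8.62 and 8.71 at 24 h (3.26-fold), and PPP1R3C, a glycogen-targeting subunit of protein phosphatase, rose 3.14-fold. TRIM68, an E3 ligase, rose 2.38-fold (1.25 ± 0.06). The translation initiation factor EIF5 rose 2.23-fold on its tested probe set, and 3 others gave from 0.92 to 1.09, while the dimmest gave -0.40. Zinc finger genes were frequent: ZNF606 rose 2.87-fold, ZNF571 2.73-fold and ZNF12 2.71-fold. A list of all 226 numbered zinc finger genes was therefore added after the values were seen. In it 113 (50%) rose and 15 (6.64%) fell, against 19.3% and 12.4% of all genes, with a median of 0.21; the fit on control arrays alone called 89 rises. Since members seen among the largest rises prompted the list, these shares are a description only. The median level of the list per array ran from 7.43 to 7.45 at 1 h and from 7.77 to 7.85 at 24 h, without overlap.

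Lipid, nutrient, autophagy and p53 genes moved in both directions. Of 14 cholesterol genes 6 fell (42.9%, against 12.4% of all genes) and 1 rose (7.14%, against 19.3%). The falls were led by the sterol sensor partner INSIG1 (1.80-fold lower) and the synthase HMGCS1 (log2 change -0.59), while FDPS rose by 0.22. The iron uptake receptor TFRC fell 2.48-fold, from 11.15, 11.16 and 11.15 to 10.00, 9.73 and 9.78. The sulphate transporter SLC26A2 rose 2.28-fold. MAP1LC3B, the autophagosome marker, fell 2.25-fold and the autophagy receptor SQSTM1 1.53-fold, whereas their transcriptional activator TFEB rose 1.40-fold on its tested probe set. A second TFEB probe set of like brightness gave 0.07 ± 0.08. The p53 list was split, with 5 falls led by PLK3 (2.85-fold) and CDKN1A (1.61-fold) and 4 rises led by SESN1 (1.43-fold), of 13. These shares were 38.5% and 30.8%, against 12.4% and 19.3% of all genes.

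The simple keratins KRT7, KRT18 and KRT8 fell 1.57-fold, 1.39-fold and 1.41-fold, the last losing its call in the fit on control arrays alone. The other 6 keratins tested did not pass the test. KRT7 was at 12.77, 12.75 and 12.79 at 1 h and 11.92, 12.25 and 12.18 at 24 h. In the squamous differentiation list, 1 of 28 rose (3.57%, against 19.3% of all genes) and 2 fell (7.14%, against 12.4%). Only 2 members lay above the table's median. Secretory genes had 3 falls of 16 (18.8%, against 12.4% of all genes). These were the iron-scavenging lipocalin LCN2 at -0.35, the protease inhibitor SLPI at -0.27 and MUC1 at -0.24. The gap junction gene GJA1 fell 1.38-fold, and the desmosomal genes DSG2 and DSP rose by 0.26 and 0.21. The calls of SLPI, MUC1, DSG2 and DSP were each lost under at least 1 alternative setting.

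**Figure D3:**
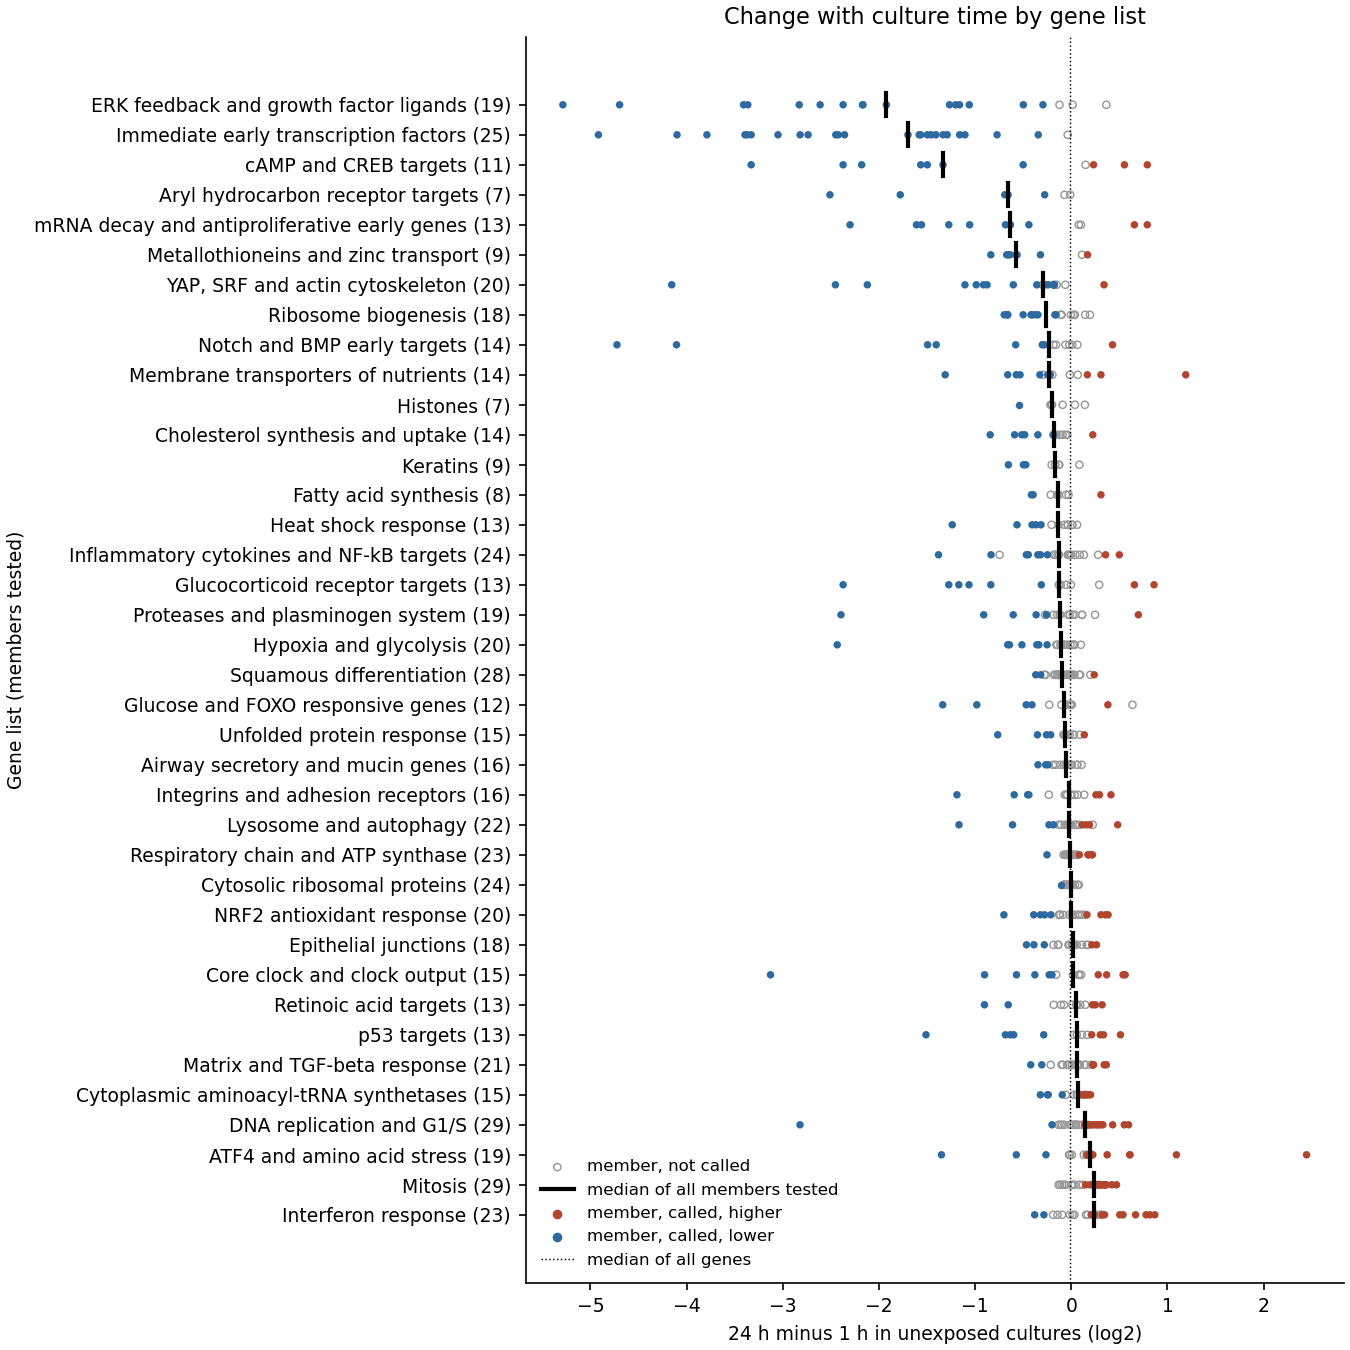
Change from 1 h to 24 h in unexposed cultures (log2) for each member tested of 38 gene lists, ordered by the median of all members (black bars), with called members in red (higher) or blue (lower). Early response lists lie far below 0, and the mitosis (0.23) and interferon (0.24) medians lie highest.

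The same time comparison within each exposed series used separate arrays at both times, so none is shared with the controls. Between 1 and 24 h, 3088 genes (25.8%) changed with 10 ug/ml MWCNT, 3391 (28.3%) with 100 ug/ml MWCNT, 3300 (27.6%) with 10 ug/ml TiO2-NB and 3895 (32.6%) with 100 ug/ml TiO2-NB. Of the control calls, 64.7%, 68.9%, 60.4% and 62.2% were called in the same direction, making up 79.5%, 77.1%, 69.5% and 60.6% of the calls in the exposed series. Calls in opposite directions numbered 1, 3, 8 and 20. The balance of rises and falls moved with cyclic loess scaling. The MWCNT calls went from 1912 rises and 1176 falls (9.83%) to 1537 and 1474 at 10 ug/ml, and from 2248 and 1143 (9.55%) to 1732 and 1517 at 100 ug/ml. The TiO2-NB balance turned, from 1733 rises and 1567 falls to 1632 and 1762 at 10 ug/ml and from 2127 and 1768 to 1899 and 2061 at 100 ug/ml. Across the 11963 genes, which are not independent replicates, the control change had a Pearson r of 0.912, 0.901, 0.858 and 0.821 with the exposed changes. All 20 of the largest control falls were called in the same direction in each exposed series. Of the 20 largest rises, 20 were called so in each MWCNT series and 18 in each TiO2-NB series. ZNF12 (0.59) and SLC26A2 (0.49) did not pass the test with 10 ug/ml TiO2-NB, nor did COL4A4 (0.39) and SLC26A2 (0.47) with 100 ug/ml. In all 5 time comparisons, 1641 genes changed the same way, 945 up and 696 down.

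A test of the control change against the mean of the 4 exposed changes called 50 genes (0.418%), with 1347 at an unadjusted p under 0.05. Leaving out single control arrays moved this count to 25 without replicate 2 at 1 h, 154 without replicate 1 at 24 h and 31 without replicate 3 at 24 h. In 9 genes (0.0752%) the change was more positive with particles than without, the largest being HOXB13 (-0.53 ± 0.12), named after its value was seen. In the other 41 it was more negative with particles, in each of the 4 exposures, and in all 41 the mean exposed level at 1 h lay above the control's. The contrast that chose these genes contains that 1 h difference, so this is largely fixed by the choice. EGR3 fell by 4.92 without particles and by 6.0, 7.38, 5.64 and 6.77 with 10 and 100 ug/ml MWCNT and 10 and 100 ug/ml TiO2-NB (difference 1.53 ± 0.20, adjusted p = 7.28e-05). Its mean at 1 h was 8.90 ± 0.39 (SD, n = 3) in controls and 10.04, 11.38, 9.78 and 11.04 in the exposed groups. At 24 h the 5 means lay between 3.98 and 4.27. GLIPR1 changed by -0.03 without particles and did not pass the test, but by -0.91, -2.24, -1.17 and -2.01 with them (difference 1.56 ± 0.19, adjusted p = 4.73e-05). In controls its other probe set above the table's median gave -0.42 ± 0.15, and a dimmer one gave 0.04 ± 0.15. In the YAP, SRF and actin list 7 of 20 members differed: ANKRD1, THBS1, SRF, TPM1, TPM4, VCL and FILIP1L. DUSP5 did not pass this test (0.28 ± 0.09, adjusted p = 0.242).

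**Figure D4:**
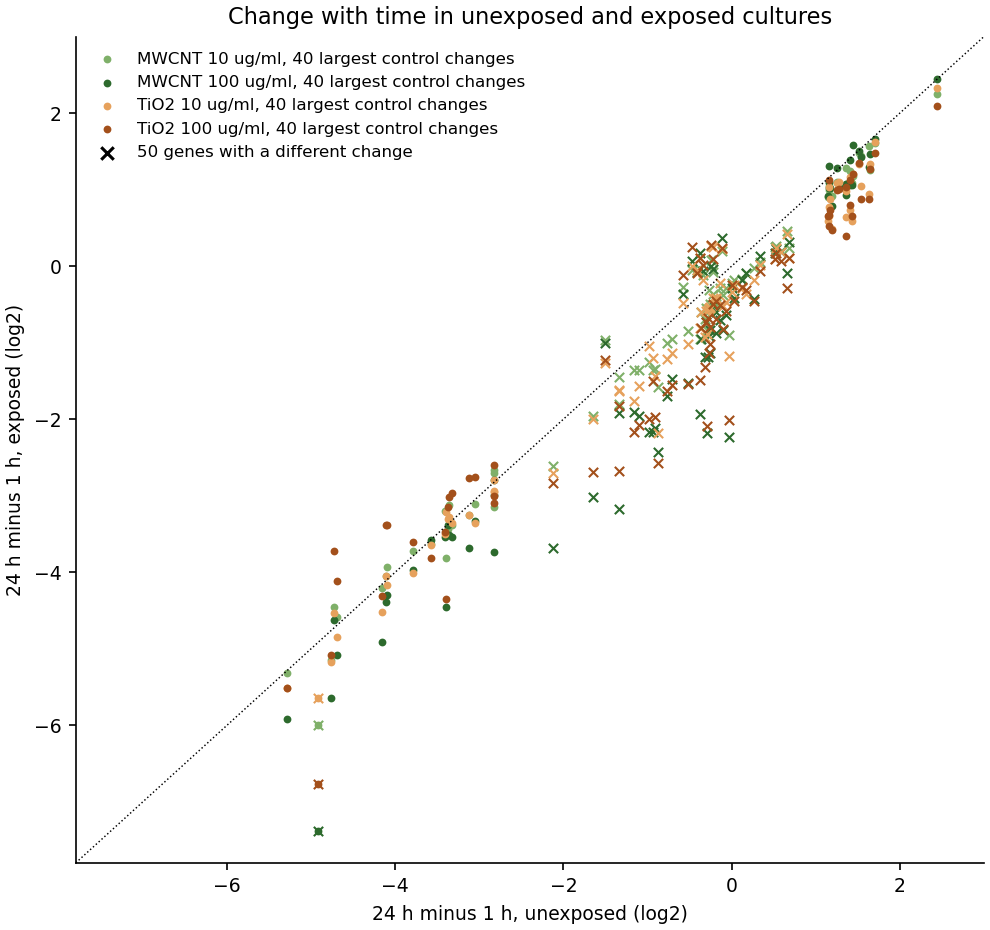
Log2 change from 1 h to 24 h in unexposed cultures against the change in each exposed series, for the 40 largest control changes (dots) and the 50 genes whose change differed (crosses); the dotted line marks equal change. Most crosses lie below the line, with EGR3 at -4.92 in controls and -7.38 with 100 ug/ml MWCNT.

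The genes whose means over the 10 groups followed EGR3 most closely were DKK1 (Pearson r = 0.997), AMOTL2 (0.997), FOSB (0.996), F3 (0.996) and ZYX (0.996); the 10 means share the split between 1 h and 24 h, so these values are descriptions. DKK1, a secreted Wnt inhibitor, fell by 2.27 in controls, the angiomotin AMOTL2 by 0.91 and the focal adhesion protein ZYX by 0.79. For FOSB the mean at 1 h was 9.15 in controls and 9.53, 10.39, 9.58 and 10.42 in the exposed groups in the order given above. At 24 h its means ran from 5.71 to 6.37.

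**Figure D5:**
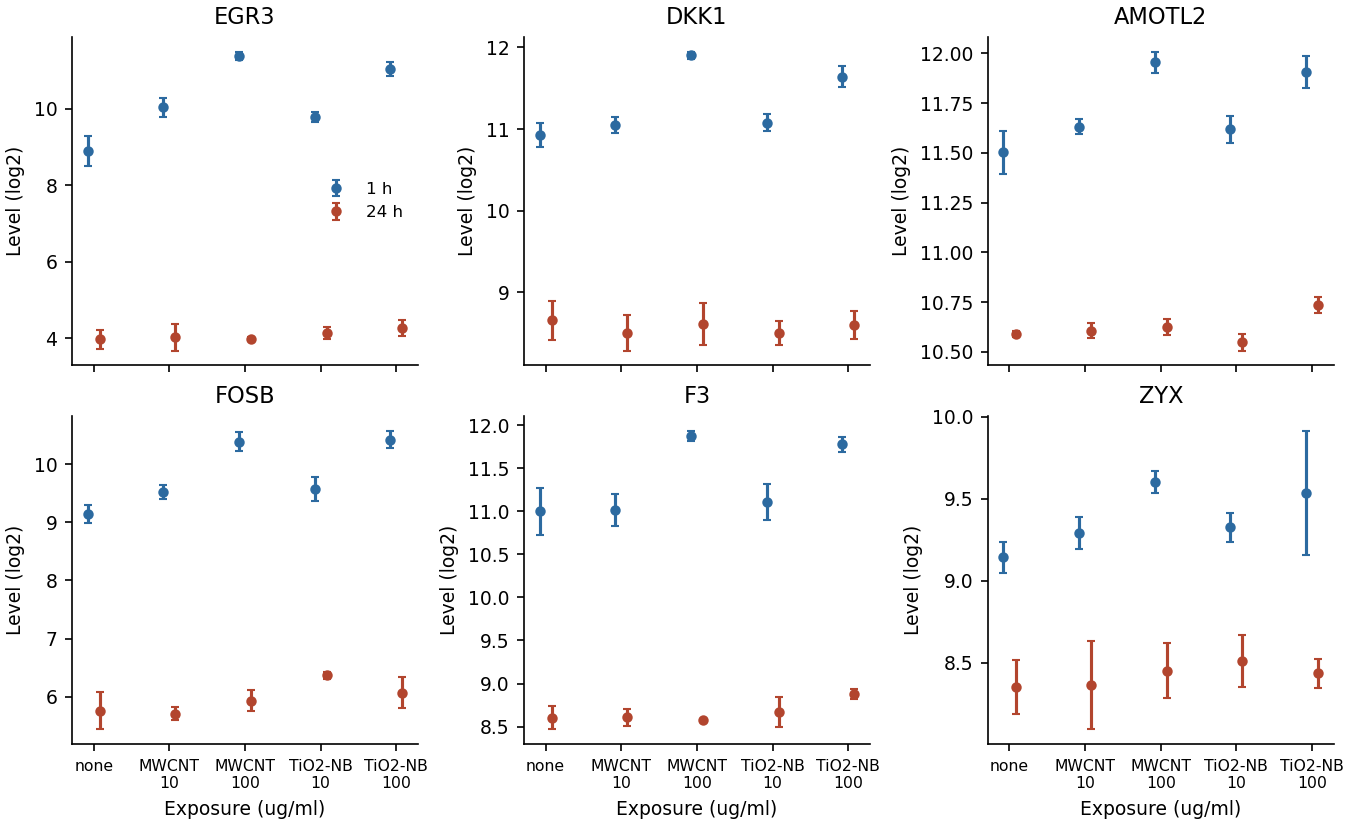
Mean level (log2 RMA units) with SD (n = 3) at 1 h and 24 h without particles and in the 4 exposed series, in ug/ml, for EGR3 and the 5 genes with the most similar pattern over the 10 group means. All 24 h means lie below all 1 h means for each gene, and for EGR3 the lowest 1 h mean is that of the controls (8.90).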

How the data were processed

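Total RNA of 30 SAE cultures was labelled and hybridised to Affymetrix expression arrays, and the 6 unexposed arrays are described here. The deposited values are log2 levels per probe set made by the authors with RMA, per the submitters' processing notes; the version is not given in the sources used here. RMA quantile-normalises all arrays together, which removes global differences in RNA amount. Of 22277 probe sets, 62 array controls were left out, 19064 had 1 symbol in the platform annotation, 1043 several and 2108 none. Those with 1 symbol gave 11963 genes, of which 4310 had more than 1 probe set; the brightest on average was tested.

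limma 3.58.1 (R 4.3.3) was fitted to all 10 groups of 3 (20 residual and 3.96 prior degrees of freedom), with Benjamini-Hochberg adjustment over all genes and a threshold of 0.05. The number of arrays limits the precision. On simulated data for the control comparison over 11963 genes, 89% of changes of 0.5 and 99% of changes of 1.0 (log2) were recovered. There were 14 false calls. The simulation changed a far smaller share of genes than the 31.7% called in the measured control comparison, and its noise was independent between genes. These shares describe the simulated data only, and recovery at the spread of the measured control arrays was not tested.

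The 222 named genes are the 20 largest rises and falls and up to 6 called members per list, or the member with the largest change where none passed. The text also gives the 5 genes most like EGR3, genes that differed from exposed cultures and further members as examples. The counts over alternative settings of the 222 named genes cover these only where they also meet the first rules. The gene lists and the comparison were chosen with earlier results of these data known. Alternatives were a filter on dim genes, cyclic loess, only the compared groups, a replicate block, array weights, the mean of all probe sets, an intensity trend and each array left out.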

Additional observations from a re-analysis of the deposited data

Results flagged for a closer look

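The change with time differed between unexposed cultures and the mean of the 4 exposed series for 50 genes by limma at an adjusted p under 0.05. The differences below are the control change minus the mean exposed change on the log2 scale, so a positive value is a more negative change with particles. For genes of the early response and its kin they were 1.53 for EGR3, 0.98 for NR4A1, 0.63 for KLF6, 0.71 for KLF7 and 0.37 for IRS2, the insulin receptor adaptor. For genes tied to YAP, serum response factor and actin they were 1.31 for ANKRD1, 1.20 for FILIP1L, 0.84 for THBS1 and 0.63 for SRF. GLIPR1 had the largest difference, 1.56, and the interferon-induced GTPase GBP1 was at 0.91. EPPK1, an epithelial cytolinker, was at 0.80, the prostaglandin receptor PTGER4 at 0.77 and the chromatin factor ARID5B at 0.72. CITED2 and SOX9, transcriptional regulators, were at 0.63 and 0.63. On their tested probe sets GLIPR1 and FILIP1L did not pass the test in unexposed cultures alone, with changes of -0.03 and -0.29. Of the 50 genes, 1 (EGR3) was among the 20 largest control falls and none was among the 20 largest rises.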

How the results depend on the processing

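No sign of the 222 named genes changed in any of 14 alternative settings that tested them, and 169 kept their call in each of these. The filter on dim genes left out 19 called named genes, so 158 were called in all 14 settings. All 40 of the largest changes were among them. Of the 20 largest rises 13 had only 1 probe set, as had 13 of the 20 largest falls. STRN, NUDT13, PLCB1 and ZKSCAN1 rose by 1.41, 1.41, 1.36 and 1.15 on the tested probe set, but their dimmer ones gave from -0.13 to 0.11. Those of CEP152 and ZNF148 gave 0.78 and 1.28. Among the named genes 51 lost the call in at least 1 setting, most often (41) in a fit limited to the groups being compared. That fit called 2075 genes in the control comparison (1322 higher, 753 lower) and 2571 with 100 ug/ml TiO2-NB, but 2892 and 3253 with 10 and 100 ug/ml MWCNT and 3392 with 10 ug/ml TiO2-NB; it could not be made for the test of control against exposed change, which uses all groups. Array weights gave 2457 falls in the control comparison and 469 genes in the test against the exposed change; they gave replicate 3 of the 24 h controls a weight of 4.87 and replicates 1 and 2 0.308 and 0.408. Leaving out 1 array at a time gave 3198 to 3892 control calls (1905 to 2312 higher, 1160 to 1580 lower; 516 to 576 above 1.5-fold), 2471 to 2761 with 10 and 2910 to 3153 with 100 ug/ml MWCNT, 2693 to 2925 with 10 and 3041 to 3695 with 100 ug/ml TiO2-NB, and 25 to 154 for the test against the exposed change. The replicate block gave 3764 control calls (2287 higher, 1477 lower). Chosen after seeing the data, adding the replicate block to that limited fit gave 2306 (1470 higher, 836 lower). Same-numbered control arrays had correlated deviations of 0.296, 0.177 and 0.0322. The medians over same-numbered arrays of any of the 10 groups were lower, at -0.0013, 0.0076 and 0.0161. The labels do not say whether the numbers pair the cultures, and the main fit did not use them. Whether the control cultures were paired was not tested. The causes of these shifts were not tested.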
